A study of Mus musculus with 6 samples.

Results

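The glucocorticoid receptor gene Nr3c1 and 9 genes that the hormone-bound receptor is known to regulate were followed in ventricles of mice with fragmented sleep and of undisturbed mice. The targets were Fkbp5, Zbtb16, Tsc22d3, Sgk1, Klf9, Klf15, Cdkn1a, Errfi1 and Pik3r1. Members were taken by name, and their probes were found by matching the RefSeq accession printed with each probe to the gene symbol. All 10 genes were found, with 12 probes, among 14537 named genes that could be compared. Every one of the 10 was well above background on all 6 arrays, so none entered through 1 group alone.

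Total RNA came from the cardiac ventricles of female C57BL/6N mice aged 21 weeks, an inbred wild-type strain. The sleep of 1 group had been interrupted over 5 weeks (sleep fragmented, 3 arrays), and the other group was not disturbed (control, 3 arrays). The sources used here do not give how sleep was interrupted, at what hour hearts were taken or how much corticosterone was in the blood. The labels do not say that the 3 samples of a group came from separate animals, and the p-values therefore cover only the spread among these arrays, part or all of which may be technical.

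Glucocorticoids (corticosterone in mice) are adrenal hormones whose release follows a daily rhythm and increases under stress. The receptor is held in the cytoplasm by Hsp90 chaperone complexes, moves to the nucleus when it binds hormone, and as a dimer binds palindromic response elements near its target genes. Heart muscle cells contain the receptor, and several of its targets feed back on the pathway or on growth and metabolism. Some targets, Klf9, Klf15, Tsc22d3 and Per1 among them, also vary with time of day.

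The sequences just before the start sites show which members carry the receptor's own motif close to the gene, and which carry the E-box that clock proteins bind. RefSeq promoters (GRCm38.p6) were searched for 8 of the 10 genes, in 18 stretches of 250 bases each, since several genes have more than 1 start. Nr3c1 and Zbtb16 were not searched, so the counts out of 18 do not cover the receptor gene or Zbtb16. The palindromic response element was searched as 2 copies of the arm AGAACA that face each other with 3 bases between. The single arm, which is also part of the palindrome, and the E-box CACGTG were searched as well, all on both strands. The palindrome was in 1 of the 18 stretches, a start of Sgk1, and in 3 of 32851 promoters of the genome (0.00913%). The single arm was in 4 of the 18 stretches (22.2%, against 16.1% of all promoters), of Sgk1 and Tsc22d3. The E-box was in 3 (16.7%, against 6.02%), of Fkbp5, Klf15 and Sgk1. The stretches of Sgk1 (the palindrome), Fkbp5 and Klf15 (E-boxes) and Klf9 (no match, but the member that separated the groups below) are printed 5′ to 3′ with the matches in capitals; the gene starts right after the last base.
Sgk1, chr10:21993640-21993889, plus strand: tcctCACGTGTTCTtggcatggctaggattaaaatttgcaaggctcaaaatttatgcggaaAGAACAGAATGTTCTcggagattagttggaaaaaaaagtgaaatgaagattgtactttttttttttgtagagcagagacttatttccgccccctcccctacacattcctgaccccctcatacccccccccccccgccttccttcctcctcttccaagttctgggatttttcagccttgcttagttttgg
Fkbp5, chr17:28486150-28486399, minus strand: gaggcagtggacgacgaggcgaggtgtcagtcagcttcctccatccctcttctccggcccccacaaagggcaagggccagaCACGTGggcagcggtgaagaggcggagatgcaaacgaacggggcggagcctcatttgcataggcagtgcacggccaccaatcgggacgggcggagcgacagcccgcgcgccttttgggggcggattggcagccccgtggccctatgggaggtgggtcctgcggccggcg
Klf15, chr6:90462326-90462575, plus strand: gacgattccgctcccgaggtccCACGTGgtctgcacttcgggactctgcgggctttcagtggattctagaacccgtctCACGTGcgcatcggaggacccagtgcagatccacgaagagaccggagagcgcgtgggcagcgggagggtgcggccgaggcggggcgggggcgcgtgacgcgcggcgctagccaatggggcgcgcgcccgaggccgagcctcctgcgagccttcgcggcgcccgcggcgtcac
Klf9, chr19:23140976-23141225, plus strand: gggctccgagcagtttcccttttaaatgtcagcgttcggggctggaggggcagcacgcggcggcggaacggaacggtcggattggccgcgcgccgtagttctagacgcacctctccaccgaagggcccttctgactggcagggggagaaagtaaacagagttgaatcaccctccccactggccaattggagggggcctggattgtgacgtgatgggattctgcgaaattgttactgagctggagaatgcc
In Sgk1 the 2 arms of the palindrome began 189 and 180 bases before this start, and a further arm, which shares bases with an E-box, began 242 bases before it. In Klf15 the E-boxes began 228 and 172 bases before the start, and in Fkbp5 the single E-box began 169 bases before it. These are matches of letters in short windows. The Sgk1 probe does not tell which of the gene's starts was in use.

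Levels are given as log2 of the spot signal minus the array's own 75th percentile, so that 0 is the level at the 75th percentile of that array. Levels of different probes cannot be set against each other. Differences are sleep fragmented minus control, tested with limma over all 25182 kept probes and adjusted by the Benjamini-Hochberg method. The share of the 39429 probes called well above background ran from 59.2% to 72.6% by array. Sleep fragmented replicate 1 was the dimmest, with a 75th percentile of 122.7 signal units against 203.9 to 251.7 on the other arrays. All 8 ventricular muscle markers checked, such as Myh6 and Myl2, were above background on every array. The 2 arrays numbered 2 stood apart by atrial and fat cell genes. Relative to the control mean, the 4 of 5 atrial markers measured (Sln did not pass the filter) lay on average at 2.99 on sleep fragmented replicate 2 and at 1.83 on control replicate 2, and between -1.85 and 0.24 on the others. The 4 of 7 adipocyte markers measured (not Plin1, Lep or Cidec) lay at 3.24 and 2.26, and between -2.28 and 0.02 on the others. Each group was read in a scan of its own, so for every difference scan and group cannot be told apart.

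None of the 10 genes passed the test. The counts were 0 of 10 at an adjusted p under 0.05, as for all genes (0 of 14537, 0%), and 1 of 10 at an unadjusted p under 0.05, against 433 genes (2.98%) in the background. With only 10 members, 1 call is not a result about the set. The smallest adjusted p among the members was 0.937 (limma). Of the 10 differences 8 were positive, where 58.7% of all genes had a positive difference, but with each array scaled to its median only 5 of 10 members and 26.9% of all genes did. The median difference of the members was 0.16 and that of all genes 0.05, on the log2 scale. Their differences lay between -0.19 and 0.43, or from 1.14-fold lower to 1.35-fold higher, and no member reached 1.5-fold, which 2.61% of all genes did upward and 1.01% downward.

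Nr3c1, the receptor itself, had level values of 4.05, 3.79 and 3.90 on the control arrays (mean 3.91 ± 0.13, SD, n = 3). On the sleep fragmented arrays it had 3.43, 3.88 and 3.85 (3.72 ± 0.25). The groups overlapped, and the lowest value was on sleep fragmented replicate 1, the dimmest array. The difference was -0.19 ± 0.20 (SE), with a 95% interval from 0.642-fold to 1.19-fold (limma, adjusted p = 0.937). The second probe for the same transcript had a difference of -0.0046 ± 0.20 (limma, adjusted p = 0.997). In neither probe was the difference larger in size than its SE. That of the first probe was larger than the SD of the controls and smaller than that of the sleep fragmented arrays. Without sleep fragmented replicate 1 the first probe gave -0.05. Because whole ventricle was measured, fewer cells that carry a transcript and less of it per cell cannot be told apart, here and in all that follows.

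**Figure D1:**
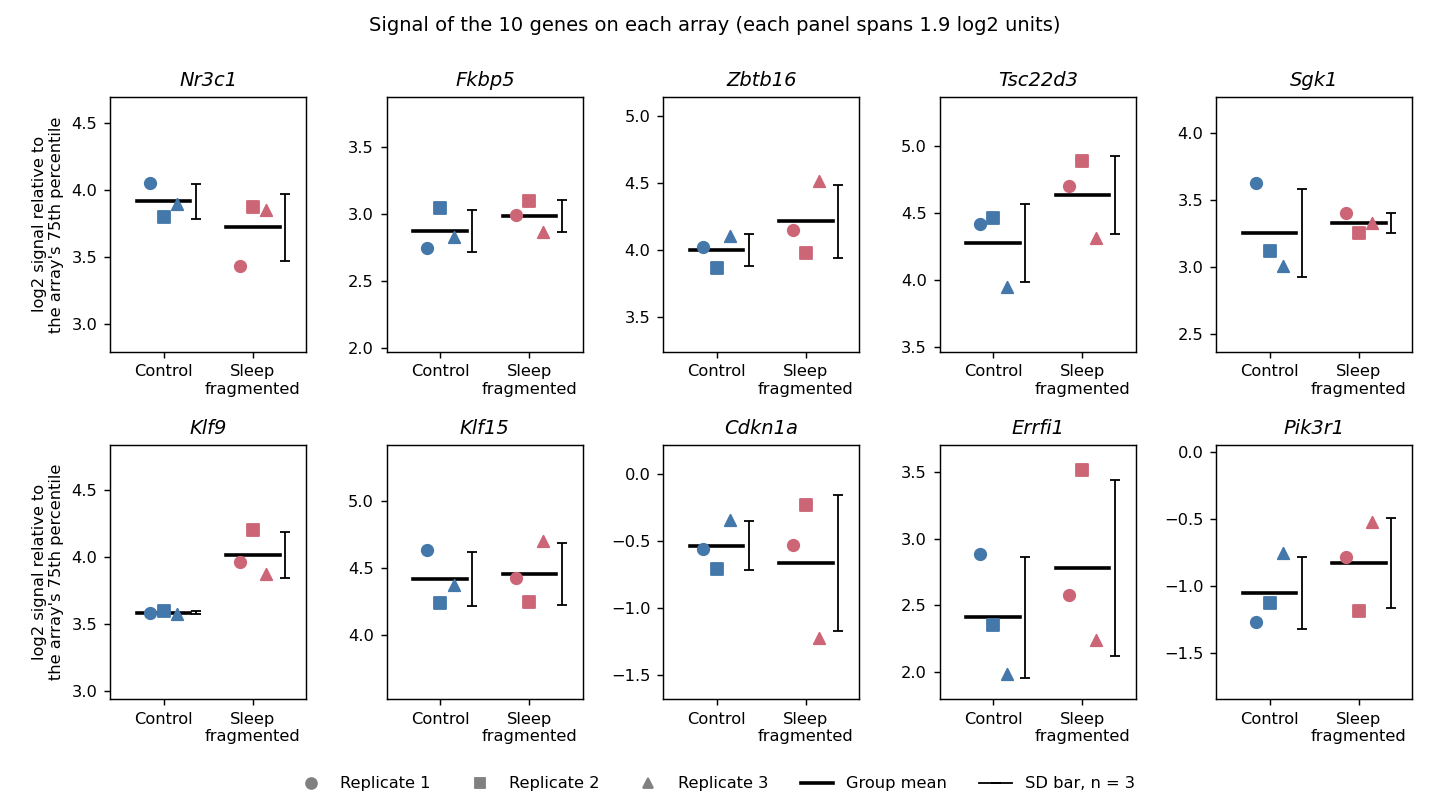
Each panel plots 1 gene's level on each array (y axis, log2 signal relative to the array's 75th percentile; all panels cover the same width in log2 units), with control in blue, sleep fragmented in red, a marker shape for each replicate number, a line for the mean and a bar for the SD of 3 arrays. Klf9 is the only panel in which no sleep fragmented array overlaps the controls (3.88 to 4.20 against 3.57 to 3.59); Errfi1 is highest on sleep fragmented replicate 2 (3.51) and Cdkn1a lowest on sleep fragmented replicate 3 (-1.23).

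Among the targets that act back on the receptor or restrain inflammation, Fkbp5 encodes the co-chaperone that lowers the receptor's affinity for hormone and is widely used as a readout of its activity. It had control levels of 2.74, 3.04 and 2.82, and sleep fragmented levels of 2.99, 3.10 and 2.86. The groups interleaved: control replicate 2 lay above 2 of the 3 sleep fragmented arrays. The difference was 0.11 ± 0.18 (limma, adjusted p = 0.944), with an interval from 0.815-fold to 1.43-fold, and it was negative with median scaling (-0.10) and normexp background correction (-0.025).

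Tsc22d3 encodes GILZ, a protein that carries part of the anti-inflammatory action of glucocorticoids. Its control levels were 4.42, 4.46 and 3.95, and its sleep fragmented levels were 4.70, 4.89 and 4.32. Within each replicate number the sleep fragmented array was above its control, by 0.28, 0.42 and 0.37, but sleep fragmented replicate 3 lay below 2 of the 3 controls. The difference was 0.36 ± 0.23, which is 1.28-fold (limma, adjusted p = 0.937), with an interval from 0.897-fold to 1.83-fold. With array weights in the fit it was 0.05.

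Zbtb16 encodes the zinc finger protein PLZF, which glucocorticoids induce in many cell types. PLZF transcript had control levels of 4.02, 3.86 and 4.10, and sleep fragmented levels of 4.14, 3.98 and 4.51. Only sleep fragmented replicates 1 and 3 lay above all controls, the third by the most. The difference was 0.22 ± 0.20, or 1.16-fold (limma, adjusted p = 0.937), and it was 0.07 without sleep fragmented replicate 3.

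Klf9, a Krüppel-like transcription factor that responds within hours to glucocorticoids and to the clock, had control levels of 3.58, 3.59 and 3.57 and sleep fragmented levels of 3.97, 4.20 and 3.88. All 3 sleep fragmented arrays were above all 3 controls, which were nearly equal (SD 0.011, against 0.17 in the sleep fragmented group). No other member separated the groups, and 3.65% of all genes did so in this direction (7.64% in either). The difference was 0.43 ± 0.18, or 1.35-fold, with an interval from 1.02-fold to 1.78-fold, at an unadjusted p of 0.0367 and an adjusted p of 0.937 (limma). It was 0.39, 0.61 and 0.30 within the replicate numbers. The difference stayed positive under all 17 alternatives, between 0.22 and 0.50, and its unadjusted p was under 0.05 in 8 of them. Quantile normalization and the authors' table, both among the 8, are nearly the same alternative (0.48 with each). Leaving out any single array other than sleep fragmented replicate 3 took the unadjusted p above 0.05, up to 0.123 (difference 0.34, limma) without sleep fragmented replicate 2.

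Klf15, a regulator of amino acid and lipid use in heart muscle and of the daily rhythm of cardiac repolarisation, had control levels of 4.64, 4.24 and 4.37. Its sleep fragmented levels were 4.42, 4.25 and 4.71, within or just beyond the control range. The difference was 0.04 ± 0.20 (limma, adjusted p = 0.978), with an interval from 0.749-fold to 1.41-fold, and its sign changed in 4 of 17 alternatives.

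The summed erythroid markers, the mean of the clock genes and that of 29 other glucocorticoid-induced genes (described below) separated the arrays in the same direction as Klf9. The summed level of the 4 erythroid markers measured was 77.4 to 264 times the 75th percentile on the sleep fragmented arrays and 43.5 to 66.2 times on the controls. Taken singly, 3 of the 4 separated the groups (3.65% of all genes in this direction), and Slc4a1 overlapped. The mean of the 12 clock genes measured, relative to the control mean, was 0.22 to 0.54 on the sleep fragmented arrays and -0.11 to 0.06 on the controls. Of the 12, 9 had a positive difference (58.7% of all genes), and 7 with median scaling (26.9%). The 3 negative ones, named with their values in view, were Arntl (-0.65 ± 0.33), Nfil3 (-0.50 ± 0.28) and Clock (-0.30 ± 0.20). The mean of the 29 induced genes, which include Per1 of the clock list, was 0.06 to 0.39 on the sleep fragmented arrays. On the controls it was -0.03 to 0.05. The part of any of these lists in the difference of Klf9 was not tested.

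Sgk1 and Pik3r1 belong to the phosphoinositide 3-kinase pathway. Sgk1 encodes a kinase that acts on ion channels and cell survival. Its control levels were 3.63, 3.12 and 3.01, and its sleep fragmented levels were 3.40, 3.26 and 3.33, inside the control range. The spread of the controls (SD 0.33) exceeded that of the sleep fragmented arrays (SD 0.07). The difference was 0.08 ± 0.21 (limma, adjusted p = 0.963), and its sign changed in 4 of 17 alternatives. The interval, for the gene with the palindrome in a promoter, ran from 0.760-fold to 1.46-fold.

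Pik3r1 encodes the regulatory subunit p85-alpha of that kinase. The control levels were -1.27, -1.13 and -0.75, and its sleep fragmented levels were -0.78, -1.18 and -0.52. The groups overlapped, with sleep fragmented replicate 2 below 2 of the 3 controls. The difference was 0.22 ± 0.23, or 1.17-fold (limma, adjusted p = 0.937). It was 0.58 with array weights and 0.01 with median scaling.

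Errfi1 and Cdkn1a restrain growth signalling, and these 2 genes had the largest standard errors of the set. Errfi1 encodes Mig6, an inhibitor of the epidermal growth factor receptor. The transcript had control levels of 2.88, 2.36 and 1.99, and sleep fragmented levels of 2.58, 3.51 and 2.24. Apart from sleep fragmented replicate 2 the values interleaved. The difference was 0.37 ± 0.35, or 1.29-fold (limma, adjusted p = 0.937), and without sleep fragmented replicate 2 it was 0.00096. That array was also the one with the most atrial and adipocyte signal, and the part of those tissues in the value was not tested.

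Cdkn1a encodes the cell cycle inhibitor p21. Its main probe is spotted 10 times on each array, so the error of the spot measurement can be seen. The SD of the 10 spots was 0.049 to 0.15 within an array, while the array levels were -0.56, -0.71 and -0.34 for controls and -0.53, -0.23 and -1.23 for sleep fragmented samples. The spread between the sleep fragmented arrays (SD 0.51) was therefore larger than the error of the spots, and it came from opposite deviations of replicates 2 and 3. The difference was -0.13 ± 0.27 (limma, adjusted p = 0.953), and it was 0.15 without sleep fragmented replicate 3. The second probe, for another transcript of the gene, gave 0.07 ± 0.22 (limma, adjusted p = 0.969).

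**Figure D2:**
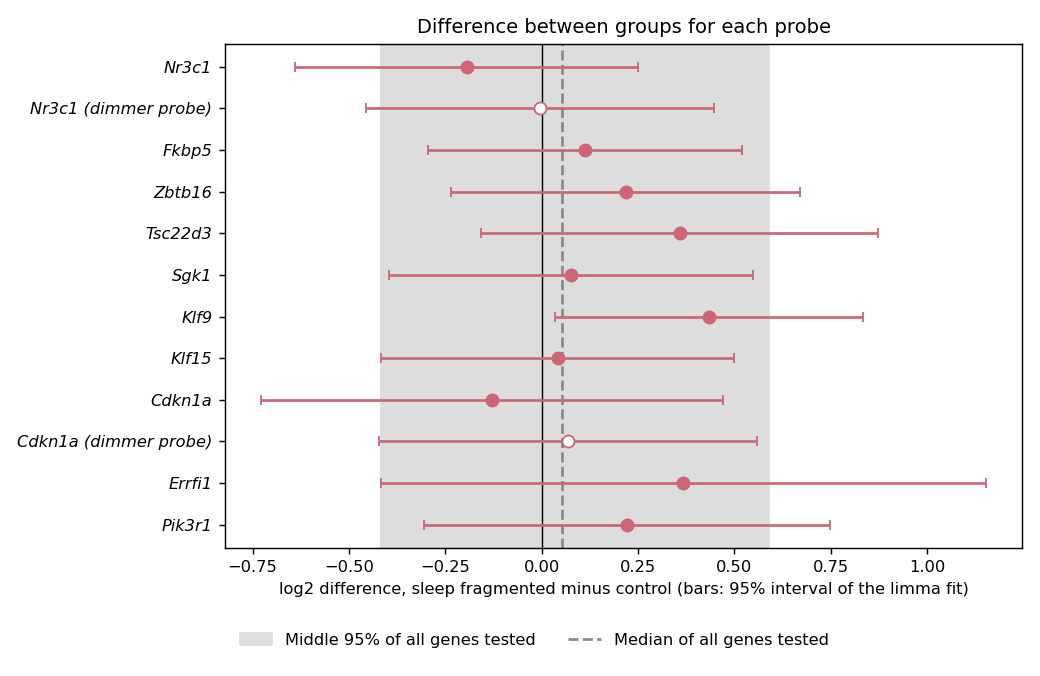
Points are the differences (x axis, log2, sleep fragmented minus control) of the 12 probes with 95% intervals of the limma fit; filled points are the probes that stand for a gene and open points the dimmer probe of Nr3c1 and Cdkn1a. The grey band holds the middle 95% of all genes (from -0.42 to 0.59) and the dashed line is their median (0.05). Every point lies inside the band, and the Klf9 interval (0.03 to 0.83) is the only one that leaves out 0.

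The members did not share 1 pattern over the arrays. Sleep fragmented replicate 2 was the highest of the 6 arrays for 5 of the 10 genes (Fkbp5, Tsc22d3, Klf9, Cdkn1a and Errfi1), where it was highest for 14.2% of all genes. Sleep fragmented replicate 3 was highest for 3 (Zbtb16, Klf15 and Pik3r1; 14.6% of all genes) and control replicate 1 for Nr3c1 and Sgk1 (15% of all genes). Control replicate 3 was the lowest array for 4, against 7.5% of all genes. For Fkbp5, Tsc22d3 and Zbtb16, the genes with the most similar pattern were those with the smallest root mean square difference of centred log2 levels over the 6 arrays. They were Edem1 (0.017), Polr3k (0.030) and Krt79 (0.030) for Fkbp5, whose own root mean square deviation was 0.13. For Tsc22d3 (own deviation 0.30) they were Tubb2b (0.07), Cks1b (0.07) and Incenp (0.08). For Zbtb16 (own deviation 0.20) they were Dedd2 (0.04), Kdm4b (0.05) and Olfr796 (0.05). No other member of the set was among them, but with only 3 of 14537 genes listed for each, this says nothing about a shared pattern.

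The machinery that holds, supplies and assists the receptor was measured through 24 genes. Of 12 chaperones and genes of hormone handling, 6 had a positive difference (58.7% of all genes) and 6 a negative one (median 0.02). At an adjusted p 0 passed (0% of all genes), and at an unadjusted p 0 (2.98%). With median scaling 4 of the 12 were positive (median -0.19), against 26.9% of all genes. The 4 with the smallest p were Bag1, a co-chaperone that limits receptor activity (-0.25 ± 0.17), Hsd11b2, which inactivates corticosterone (0.45 ± 0.32), Stip1, which links Hsp70 to Hsp90 (0.25 ± 0.22), and Nr3c2, the mineralocorticoid receptor (0.29 ± 0.29). Bag1 was the only one of the 12 without overlap, against 3.98% of all genes in this direction and 7.64% in either, with 5.37, 5.40 and 5.27 in controls and 5.10, 5.08 and 5.10 in sleep fragmented samples (limma, adjusted p = 0.937). Hsd11b1, which regenerates corticosterone inside cells, had a difference of -0.07 ± 0.26, and Hsp90aa1 one of -0.12 ± 0.17. These 2 genes were picked with their values in view.

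Of 12 coregulators 9 had a positive difference (median 0.13), against 58.7% of all genes, and 0 passed at either threshold. With median scaling 3 of the 12 were positive (median -0.08), against 26.9% of all genes. The smallest p values belonged to the acetyltransferase genes Crebbp (0.35 ± 0.21) and Ep300 (0.25 ± 0.20), the arginine methyltransferase gene Carm1 (-0.25 ± 0.21) and the corepressor gene Nrip1 (0.18 ± 0.18). Ep300 was above background on 2 of the 3 sleep fragmented arrays.

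Other genes that glucocorticoids induce were tallied from a list of 30, of which 29 could be compared (Foxo3 did not pass the filter). By limma 0 passed at an adjusted p. At an unadjusted p under 0.05 there were 4 higher and 1 lower, against 1.85% and 1.13% of all genes. The sleep fragmented arrays lay above all controls for 4 of the 29, against 3.65% of all genes. These were Per1, Hif3a, Map3k6 and Cdkn1c. They lay below all controls for 0, against 3.98% of all genes. A positive difference was found for 24 of 29 (82.8%, against 58.7% of all genes), with a median of 0.21; with median scaling 13 of 29 were positive, against 26.9% of all genes. Measured from the median of all genes, 22 of 29 lay above it, 16 with array weights and 18 with normexp.

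Per1, a clock repressor known to have a glucocorticoid response element, had the smallest p. In the 250 bases before its starts, neither the palindrome nor the single arm was found, and an E-box began 166 bases before a start. The control levels of Per1 were 2.44, 1.91 and 1.59 and its sleep fragmented levels 2.98, 3.10 and 2.64, without overlap. The difference was 0.93 ± 0.25, or 1.91-fold (limma, unadjusted p = 0.00480, adjusted p = 0.937). Per1 is also in the clock list, where Hlf (1.07 ± 0.21), Per2 (1.08 ± 0.26, above background on 2 of the 3 controls) and Dbp (1.40 ± 0.34) had smaller p values. Of 12 clock genes measured, 4 were higher at an unadjusted p under 0.05 (1.85% of all genes), 0 were lower (1.13%) and 0 passed at an adjusted p. Per2 passed the filter only through the sleep fragmented group, where it was higher. It is in this count and in the mean of the 12 genes above.

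Hif3a, a hypoxia-inducible factor subunit, had control levels of -0.33, -0.52 and -0.14 and sleep fragmented levels of 0.09, 0.43 and 0.11. The groups did not overlap (3.65% of all genes in this direction), and the difference was 0.54 ± 0.19 (limma, adjusted p = 0.937). Map3k6, a stress kinase gene, had control levels of 1.28, 1.29 and 0.96 and sleep fragmented levels of 1.98, 1.94 and 1.37. They did not overlap either, with a difference of 0.59 ± 0.22 (limma, adjusted p = 0.937).

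Ddit4 encodes REDD1, an inhibitor of the growth kinase mTOR. Its control levels were 3.89, 4.11 and 3.24 and its sleep fragmented levels 4.68, 5.13 and 3.95, so sleep fragmented replicate 3 lay below control replicate 2. The difference was 0.84 ± 0.33 (limma, adjusted p = 0.937). The 1 gene lower at an unadjusted p, chosen after its value was seen, was the prostaglandin D synthase gene Ptgds, at -0.75 ± 0.32 (limma, adjusted p = 0.937). It stood at 3.39 on sleep fragmented replicate 2 and between 4.27 and 5.14 on the other arrays.

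Sleep fragmented replicate 2 was the highest array for 14 of the 29 genes and sleep fragmented replicate 1 for 7, where they were highest for 14.2% and 28.4% of all genes. Among those 14, chosen after their values were seen, Cebpd stood at 4.64 on that array against 3.04 to 3.87 on the others, and Nfkbia at 2.89 against 1.32 to 2.22. Without sleep fragmented replicate 2 the positive differences were 23 of 29, 2 genes had an unadjusted p under 0.05, and the differences were 0.83 for Per1, 0.43 for Hif3a, 0.50 for Map3k6, 0.57 for Ddit4 and -0.40 for Ptgds. Without control replicate 3 the count at an unadjusted p was 2 as well, and the differences of Per1 and Ddit4 were 0.73 and 0.59. With array weights the differences were 0.41 for Per1 (limma, unadjusted p = 0.0528), 0.27 for Map3k6, 0.35 for Ddit4 and -0.39 for Ptgds, all smaller by over 1.5 times and with an unadjusted p above 0.05 (limma). Hif3a had 0.33 with the mean of all kept probes, 0.33 with median scaling and 0.35 with normexp, and Map3k6 had 0.38 with median scaling. With both arrays numbered 2 left out 23 were positive and 2 had an unadjusted p under 0.05. Atrial and adipocyte signal was highest on sleep fragmented replicate 2, and so was that of fibroblasts and macrophages. Nerve and smooth muscle markers were also highest there, with means of 0.95 and 0.60 above the control mean. Relative to the control mean, the 5 fibroblast markers lay on average at 0.40, 0.76 and 0.05 on the sleep fragmented arrays, and the 29 induced genes at 0.26, 0.39 and 0.06. On the control arrays the fibroblast markers lay at 0.16, -0.12 and -0.04 and the induced genes at -0.01, 0.05 and -0.03, in a different order. The 5 of 6 macrophage markers measured lay at 0.58 on sleep fragmented replicate 2 and between -0.25 and 0.29 on the others. The part of these cell types in the values was not tested.

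**Figure D3:**
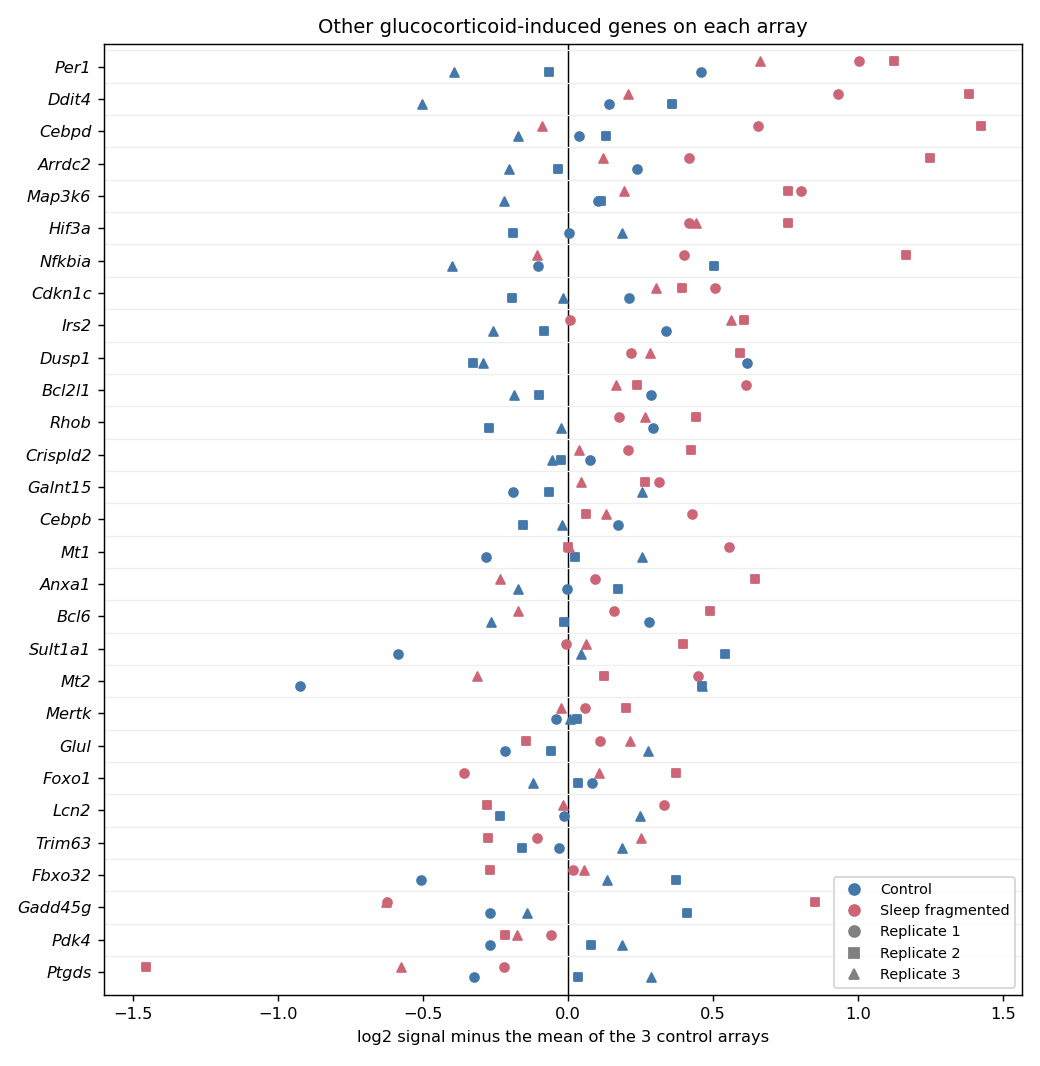
Rows are the 29 other glucocorticoid-induced genes, ordered by their difference, and points are the arrays (x axis, log2 level minus the mean of the 3 controls; control blue, sleep fragmented red, marker shapes for replicate numbers). The upper rows, from Per1 (0.93) down to Cdkn1c (0.40), hold mostly red points to the right of the blue ones, often led by the square of sleep fragmented replicate 2; the muscle atrophy genes Trim63 (-0.04) and Fbxo32 (-0.07) near the bottom are mixed.

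Among further genes of that list, Pdk4, which limits glucose oxidation, had -0.15 ± 0.19, the muscle ubiquitin ligase genes Fbxo32 and Trim63 had -0.07 ± 0.25 and -0.04 ± 0.21, and Foxo1 had 0.04 ± 0.22. The metallothionein genes Mt1 and Mt2, which glucocorticoids and metals induce, had 0.19 ± 0.23 and 0.09 ± 0.38. The naming rule does not cover these genes, which were picked with their values in view.

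Of 12 inflammatory genes that glucocorticoids repress, only 5 passed the filter on dim probes; Il6, Il1b, Tnf, Cxcl10, Ptgs2, Nos2 and Mmp9 did not. Of the 5, 3 had a positive difference (58.7% of all genes; 1 with median scaling, against 26.9%), 0 passed at an adjusted p and 1 was lower at an unadjusted p (1.13% of all genes). This was the monocyte chemokine gene Ccl2, with control levels of 0.16, 0.74 and 0.64 and sleep fragmented levels of 0.21, -0.00060 and -0.16. The groups overlapped at control replicate 1, and the difference was -0.50 ± 0.21 (limma, adjusted p = 0.937). The adhesion molecule genes Vcam1 and Icam1 had differences of 0.52 ± 0.41 and 0.13 ± 0.26, and the chemokine gene Cxcl1 had -0.08 ± 0.23. Icam1 was above background on 2 of the 3 sleep fragmented arrays. Ccl5, also among the 3 positive ones, was above background on 1 of the 3 controls. It thus passed the filter only through the sleep fragmented group.

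**Figure D4:**
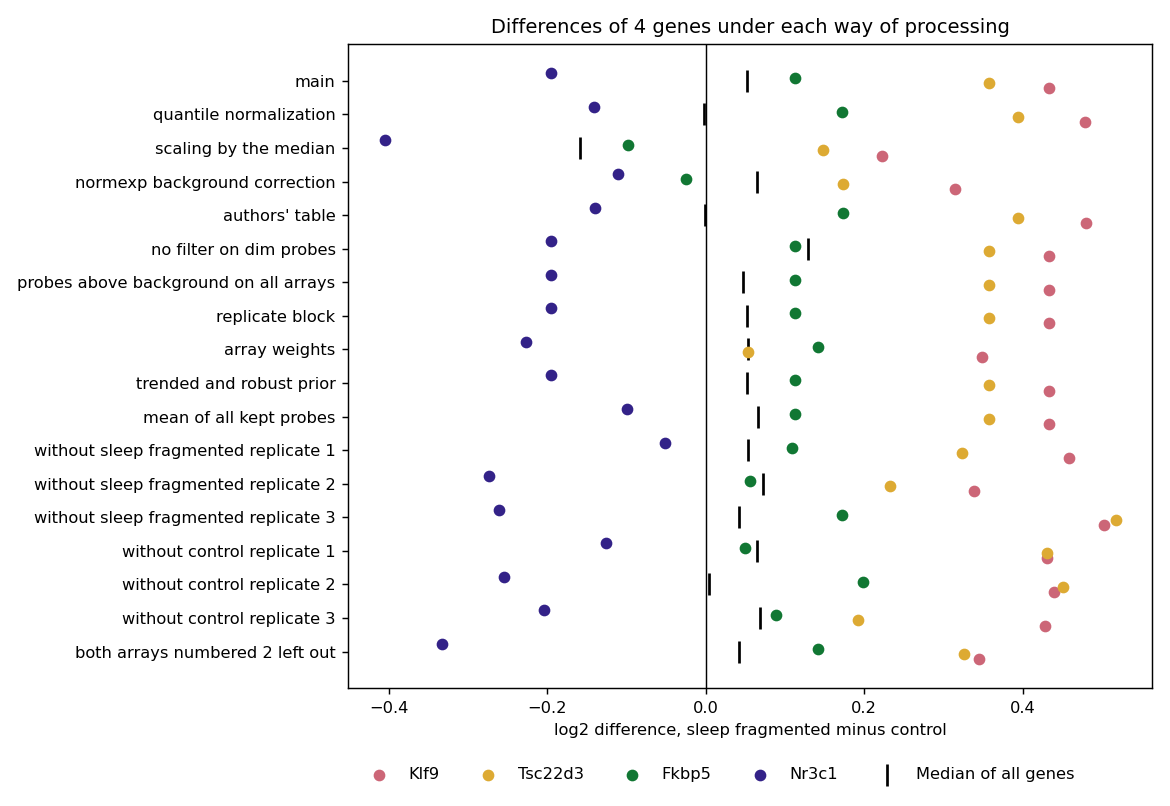
For each way of processing (rows), points give the difference (x axis, log2, sleep fragmented minus control) of Klf9, Tsc22d3, Fkbp5 and Nr3c1, and the black tick is the median of all genes. Klf9 stays to the right of the tick in every row (from 0.22 with median scaling to 0.50 without sleep fragmented replicate 3), Nr3c1 stays below 0 (-0.40 to -0.05), and the tick itself moves to -0.16 with median scaling.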

How the data were processed

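Per the file headers, the scanner files hold intensity values on a linear scale (processed signals after background subtraction, raw medians and the local background) from Agilent Feature Extraction 11.0.1.1; the submitters' processing notes name 10.5.1.1. The deposited flags for background, saturation and outliers are other values, 0 or 1. The authors also deposited a table of log2 values, and the sources used here do not say how. Its columns had a median of 5.53 each and followed their own array's log2 signal (r of 0.998 or more), without centring by gene. With centring by gene they followed the quantile-normalized signal at r of 0.996 to 0.998, so these alternatives are nearly the same. The authors' table served as an alternative only.

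Processed signals were put on the log2 scale, and the 75th percentile of each array's non-control probes was subtracted. Control and outlier spots were left out and spots of a probe averaged. Of 39429 probes, 25182 were kept: those with a value on all arrays and a background flag passed by all 3 arrays of either group. Names came from matching unversioned accessions to a RefSeq gene table (GRCm38.p6; 27234 probes named, 12195 not), and the brightest kept probe stood for a gene. Groups and replicate numbers came from the sample titles. limma 3.58.1 in R 4.3.3 (lmFit, eBayes, two-sided, threshold 0.05) compared 3 arrays with 3; the number of arrays limits the precision. The fit was tested on simulated data with 50 changed probes at each size of difference. Values were drawn independently for each probe, with its observed SD within groups taken as the true SD. The adjusted threshold was passed by 0 of 50 at 1.5-fold, 3 of 50 at 2-fold, 32 of 50 at 3-fold and 33 of 50 at 5-fold. At an unadjusted p under 0.05, 29 of 50 were found at 1.5-fold. In these simulated data the adjusted test thus found none of the 1.5-fold differences, a size that no member reached. Real SDs and dependence between probes may differ from this setting, so the rates on the real arrays are not known.

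The members, lists and tests were chosen with earlier results of these data known. All members are named, with up to 4 genes of smallest p per list; others are marked as chosen later. The likeness of patterns was taken for Fkbp5, Tsc22d3 and Zbtb16. Alternatives covered the scaling, background correction (normexp, offset 50, on median signals, since mean spot signals were not used here), dim-probe filter, authors' table, replicate block, array weights, prior, probe choice and each array left out. Marker lists of cell types were checked per array; those not named in the text had overlapping groups in their summed levels.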

Additional observations from a re-analysis of the deposited data

How the results depend on the processing

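By limma, 0 members passed the adjusted threshold under any of 17 alternatives. Members at an unadjusted p under 0.05 (1 as reported) numbered 0 with median scaling, normexp, no filter on dim probes, and both arrays numbered 2 left out, 4 with array weights (Klf9, Zbtb16, Cdkn1a and Pik3r1), where 21.4% of all genes were called against 2.98% as reported, and 0 to 1 with single arrays left out. The median difference of the members (0.16) was -0.045 with median scaling, 0.036 with normexp and 0.035 with array weights, and 0.11 to 0.19 with single arrays left out. Signs changed as follows. With median scaling the differences were -0.10 for Fkbp5, -0.13 for Sgk1 and -0.17 for Klf15. With normexp they were -0.025, -0.043 and -0.10 in the same order. With array weights they were -0.22 for Sgk1 and -0.34 for Errfi1, and with both arrays numbered 2 left out -0.026 for Errfi1. With single arrays left out Klf15 ranged from -0.082 to 0.15, Cdkn1a from -0.34 to 0.15 and Sgk1 from -0.045 to 0.26. Median scaling moved every gene by -0.21 and the median of all genes from 0.05 to -0.16. Relative to the median of all genes the members' median was 0.11 as reported, -0.029 with normexp, -0.018 with array weights and 0.036 without the filter on dim probes. The causes were not tested. The alternative that leaves out both arrays numbered 2, and those for the other glucocorticoid-induced genes, were chosen after seeing the data, as were the other lists under median scaling. For the induced genes the count at an unadjusted p was 5 of 29 as reported. It was 9 with the replicate block, where 7.25% of all genes were called, 4 with array weights (21.4%), and 2 with median scaling (4.85%), without sleep fragmented replicate 2 (4.39%) and without control replicate 3 (9.71%).

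The labels do not say whether the replicate numbers pair the samples, and the values do not settle it. Deviations of same-numbered arrays correlated at 0.0633, 0.554 and 0.214, and those of differently numbered arrays at -0.496 to 0.36. A block by the array barcode in the file headers gives the same fit, since that field holds only what reads as a position on the slide and coincides with the number. With the replicate block, Klf9 had an unadjusted p of 0.0336 (limma), 0 members passed the adjusted threshold, and of all genes 2 passed the adjusted threshold against 0, and 1054 were called at an unadjusted p against 433. Probes near background, such as Per2 and Ep300, are the least certain.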
